A study of Mus musculus with 10 samples.

Results

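A set of 9 genes of the Wnt pathway was followed across mouse ovaries at 6 weeks of age: the ligands Wnt4, Wnt5a, Wnt6, Wnt9a and Wnt11, the secreted amplifier Rspo1, and Lef1, Axin2 and Znrf3. They were chosen by symbol, with earlier results of these data known. The 9 are part of the 24306 genes in the count table, and all 9 were counted in every library. PolyA RNA of whole gonads was sequenced in 10 libraries from mice of a mixed C57BL/6 and 129 strain. All 10 carried floxed alleles of Rara, Rarb and Rarg (each f/f), which encode the retinoic acid receptors. Controls (n = 5) were Dmrt1 +/+ and Sf1-Cre-, so their receptor genes were floxed but intact. Rar mutants (n = 3) were Dmrt1 +/+ and Sf1-Cre+. Dmrt1 het Rar mutants (n = 2) were Dmrt1 fl/+ and Sf1-Cre+. Sf1-Cre uses the Nr5a1 promoter and acts in gonadal somatic cells, not in germ cells. Which cells of these ovaries lost the receptors was not measured. The study's title sets the question of what the somatic ovary needs retinoic acid signaling for, and the comparison here asks whether transcripts of these Wnt genes differed. Nothing in the labels says that the libraries of a group came from separate animals, so p-values measure the spread between these libraries.

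Wnt ligands are lipid-modified secreted proteins that bind Frizzled receptors and their co-receptors. In the canonical branch, binding stops the destruction complex from degrading beta-catenin, which then enters the nucleus and acts with TCF/LEF factors. R-spondins amplify the signal by binding Lgr receptors and the ligases Znrf3 and Rnf43, which otherwise clear Frizzled from the cell surface. In the XX gonad, Wnt4 and Rspo1 act together in ovarian development and oppose the testis program, while Wnt5a and Wnt11 are known mainly for branches that do not use beta-catenin. Axin2 and Lef1 are common readouts of canonical signaling, since both are targets of beta-catenin in many tissues.

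Promoter windows were read for 7 of the 9 genes from RefSeq (GRCm38.p6), in 11 entries, with no entry for Wnt5a and Znrf3. The windows were searched over 250 bases before the RefSeq start, on both strands, for the retinoic acid receptor motifs AGGTCA and GGGTCA and the TCF/LEF motifs CTTTGAT and CTTTGTT. Over all 32851 promoter windows of that length, AGGTCA was present in 14.0%, GGGTCA in 11.6%, CTTTGAT in 3.21% and CTTTGTT in 5.03%. The windows of Wnt9a and Wnt11 were the 2 with a match, and Axin2, a textbook target of beta-catenin, is shown beside them. The stretches are 5′ to 3′ on the plus strand and end at the base before the annotated gene start. They lie at chr11:59306680-59306927 for Wnt9a, at chr7:98834862-98835111 for Wnt11 (the first of its entries) and at chr11:108920099-108920348 for Axin2. Capitals mark the match, which in both genes reads as the reverse complement of the motif.
Wnt9a: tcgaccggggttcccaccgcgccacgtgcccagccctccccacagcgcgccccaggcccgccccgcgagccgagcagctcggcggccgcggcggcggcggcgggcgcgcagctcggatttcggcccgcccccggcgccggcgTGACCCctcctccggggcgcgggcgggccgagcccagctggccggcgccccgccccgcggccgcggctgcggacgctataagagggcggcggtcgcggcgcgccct
Wnt11: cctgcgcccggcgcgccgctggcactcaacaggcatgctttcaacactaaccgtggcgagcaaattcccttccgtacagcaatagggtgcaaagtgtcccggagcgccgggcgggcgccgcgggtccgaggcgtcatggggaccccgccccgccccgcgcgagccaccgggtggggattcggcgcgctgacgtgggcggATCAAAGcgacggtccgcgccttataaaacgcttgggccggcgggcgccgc
Axin2: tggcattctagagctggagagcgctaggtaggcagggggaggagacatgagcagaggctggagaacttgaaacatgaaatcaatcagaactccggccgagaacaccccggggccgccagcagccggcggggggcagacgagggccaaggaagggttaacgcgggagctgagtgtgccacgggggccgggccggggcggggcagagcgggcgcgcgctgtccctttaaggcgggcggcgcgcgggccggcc
The Wnt9a match to GGGTCA began 108 bases before the RefSeq start and the Wnt11 match to CTTTGAT 51 bases before it. The other 9 entries, among them those of Wnt4, Wnt6, Rspo1, Lef1 and Axin2, held none of the 4 motifs in these windows. The GC box GGGCGG, found in 32.7% of all windows, occurred 5 times in the Wnt9a window, 8 times in that of Wnt4 and 6 times in that of Wnt6. Neither match overlaps a GC box. A match is a string of letters and not evidence of binding.

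Libraries held 21064856 to 25920131 counts, so 3 counts, the limit that a count of 0 allows, correspond to 0.116 to 0.142 CPM (counts per 1000000 counts of the library). Granulosa cell markers summed to 2486 to 6940 CPM and oocyte markers to 212 to 739 CPM per library, so defining ovarian markers were present throughout. Rarg stood at 25.2 to 33.1 CPM in controls, 14.9 to 19.0 CPM in Rar mutants and 21.4 to 23.8 CPM in Dmrt1 het Rar mutants. Controls overlapped with neither mutant group. Of all genes, 5.3% did not overlap between Rar mutants and controls, and 28.9% between Dmrt1 het Rar mutants and controls. Rara and Rarb overlapped between groups, and counts per gene do not show which exons were read. Dmrt1 was at 0 in 9 of 10 libraries, so it checks no label. Sample titles carry numbers, and those of control 1, Rar mutant 1 and the pair of Dmrt1 het Rar mutants are under 7800. These 4 libraries lay between -39.9 and -28.0 on the first principal component (40.0% of the variance over 17632 genes), and the other 6 between 0.216 and 46.9. Between these sets, with the 3 groups as terms, 2414 of 20570 genes (11.7%) passed the test. In fits that held the title-number set as a term, 40 genes passed between controls and the pooled Rar-deleted ovaries and 85 between controls and Rar mutants. The labels do not say what the title numbers stand for, and both Dmrt1 het Rar mutants have low ones.

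Levels between genes were compared in FPKM, fragments per kilobase of transcript and per 1000000 fragments. In controls, Wnt4 was the highest of the 9 genes at 22.9 ± 6.44 FPKM (SD, n = 5), followed by Wnt6 at 12.9 ± 3.81 FPKM and Rspo1 at 9.53 ± 1.54 FPKM. This order held in 5 of 5 control libraries, although the ranges of neighbours overlapped. Wnt5a and Axin2 came next at 4.88 ± 1.21 and 4.70 ± 1.45 FPKM, and neither was above the other in all libraries. Wnt9a stood at 2.45 ± 0.336 FPKM and Znrf3 at 2.26 ± 0.802 FPKM, again in no fixed order. Wnt11 (0.379 ± 0.145 FPKM) and Lef1 (0.361 ± 0.174 FPKM) were the lowest. Ranges in controls did not overlap between Rspo1 and Wnt5a, between Axin2 and Wnt9a, or between Znrf3 and Wnt11.

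The Cre-positive ovaries ranked Znrf3 above Wnt9a on average. Znrf3 stood above Wnt9a in 2 of 3 Rar mutants and in 2 of 2 Dmrt1 het Rar mutants, against 2 of 5 controls. In the Dmrt1 het Rar mutants the top of the order was compressed: Wnt4 averaged 8.08 ± 4.65 FPKM (n = 2), Wnt6 7.4995 ± 0.0884 FPKM and Rspo1 7.09 ± 1.20 FPKM, with overlapping ranges. In Rar mutants Wnt4 averaged 27.02 ± 9.57 FPKM (n = 3) and was the highest of the 9 in 3 of 3 libraries. No test was made of these orders.

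Of the 19 mouse Wnt ligand genes, 13 had a row in the table, and 6 to 9 of them reached an FPKM of 1 in a given library. The 5 ligands described here made up 42.4% to 83.1% of the summed ligand FPKM in controls, 60.7% to 86.7% in Rar mutants and 38.0% and 42.1% in the Dmrt1 het Rar mutants. Wnt4 alone made up 38.1% to 40.1% in controls 2 to 5 but 19.0% in control 1, the control with a low title number. In libraries with low title numbers, most of the sum outside the 5 ligands was Wnt10b, singled out after its values were seen. Wnt10b made up 42.9% in control 1, 22.9% in Rar mutant 1 and 48.3% in both Dmrt1 het Rar mutants. In the 6 other libraries it made up 2.05% to 20.4%. The ratio of Wnt4 to Wnt5a FPKM was at most 2.10 in the 4 libraries with low title numbers and at least 4.64 in the 6 others. These sets did not overlap. The share of all genes that separate the sets in this way was not computed, and 11.7% of all genes passed the test between them.

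**Figure D1:**
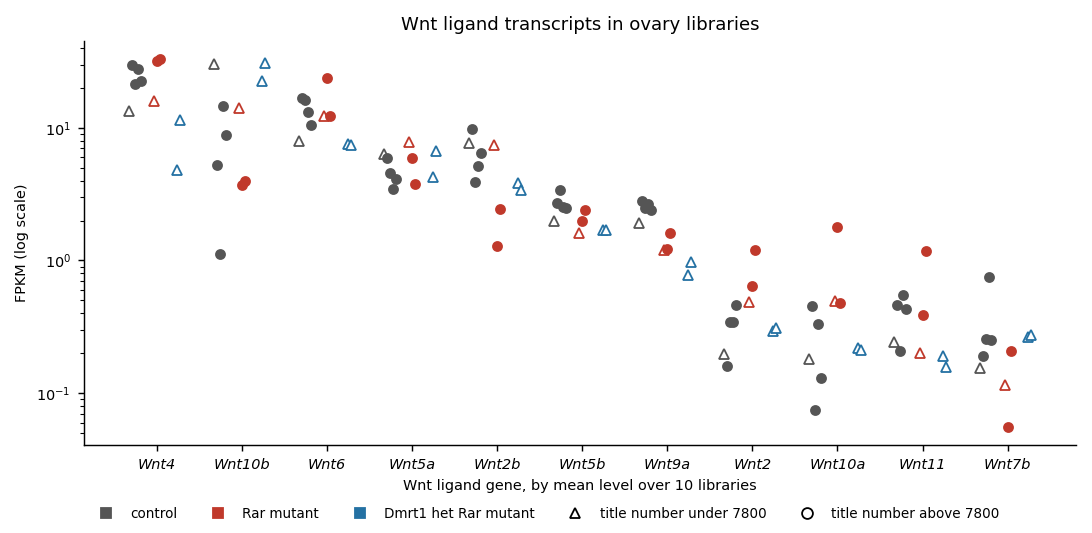
FPKM (log axis) of the 11 Wnt ligand genes above 0 in all 10 libraries, ordered by mean level; each point is a library, coloured by group, with triangles for title numbers under 7800. Wnt4 was the highest on average, and Wnt10b spread from 1.11 to 30.6 FPKM, with values of 22.4 FPKM and above only among the triangles. The circle of control 4, at 14.6 FPKM of Wnt10b, lies just above the triangle of Rar mutant 1, at 14.2 FPKM.

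None of the 9 genes passed the test in any of the 4 comparisons (edgeR quasi-likelihood test, two-sided, Benjamini-Hochberg adjusted p under 0.05 over all genes tested). In all Rar-deleted ovaries against controls (n = 5 and 5), 0 of 9 were called, where 0.111% of 18954 genes were. In Rar mutants against controls 0 of 9 were called, where 0.00972% of 20570 genes were. For Dmrt1 het Rar mutants the backgrounds were 0.0194% against controls and 0% against Rar mutants, again with 0 of 9 called. At an unadjusted p under 0.05 there were 1, 1, 3 and 5 of the 9 in these comparisons in that order, where 8.47%, 9.45%, 17.3% and 16.9% of all genes lay. DESeq2, run as an alternative, called 1, 1, 2 and 1 of the 9, namely Wnt9a in each comparison with controls and Wnt4 in both comparisons of Dmrt1 het Rar mutants. The median log2 fold change of the 9 was -0.03, 0.23, -0.64 and -0.60, beside 0.00, -0.02, -0.02 and -0.01 over all genes tested. With the title-number set as a term, the medians of the 9 were 0.06, 0.16, -0.28 and -0.44.

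**Figure D2:**
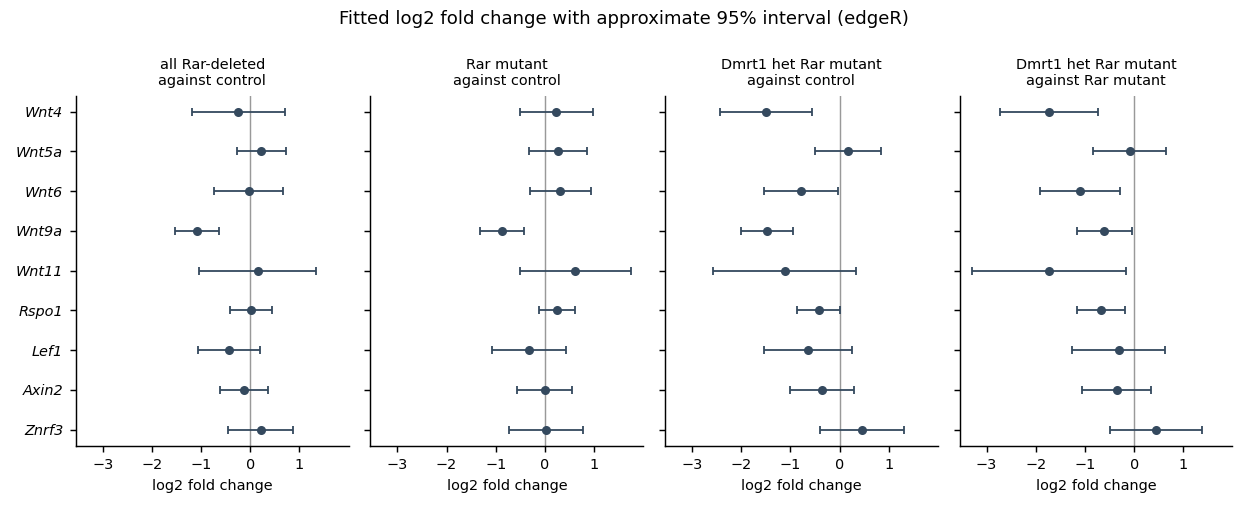
Fitted log2 fold change (point) and approximate 95% interval (line) of each of the 9 genes in the 4 comparisons, from edgeR. Wnt9a lies to the left of 0 in every panel, at -1.08, -0.87, -1.48 and -0.60, and Wnt4 lies at -1.50 and -1.73 in the panels of Dmrt1 het Rar mutants.

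Wnt9a, a ligand known from the forming joints of the skeleton, was the gene of the 9 with the clearest separation between genotypes (chr11:59306928-59333552, plus strand). It stood at 6.68, 9.64, 7.61, 8.80 and 8.29 CPM in controls 1 to 5, at 4.03, 4.03 and 4.78 CPM in Rar mutants 1 to 3, and at 2.73 and 3.56 CPM in Dmrt1 het Rar mutants 1 and 2. The lowest control lay above the highest Rar-deleted ovary, and the Dmrt1 het Rar mutants lay below the Rar mutants. It was 1 of 9 genes without overlap between all Rar-deleted ovaries and controls, where 1.64% of all genes did not overlap. Between Rar mutants and controls it was again 1 of 9, where 5.3% did not. The 9 genes were chosen with earlier results of these data known, so these counts are a description and not a test.

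The mean Wnt9a level was 3.83 ± 0.753 CPM in all Rar-deleted ovaries against 8.203 ± 1.13 CPM in controls (SD, n = 5 each), a 2.12-fold lower level. The log2 fold change was -1.08 (SE 0.20, 95% interval -1.53 to -0.64), and the edgeR adjusted p of 0.0838 missed the threshold. In Rar mutants alone it was -0.87 (SE 0.20, adjusted p = 0.139), and in Dmrt1 het Rar mutants -1.48 (SE 0.24, adjusted p = 0.149). DESeq2 gave fold changes of the same size with adjusted p of 0.000233, 0.00433 and 5.48e-06, so the call turned on the tool and not on the direction. Without control 1 the edgeR adjusted p for Dmrt1 het Rar mutants was 0.0301, which passed. Among the 6 libraries with high title numbers, the log2 fold change of 2 Rar mutants against 4 controls was -0.88 (adjusted p = 0.112). Among the low title numbers, control 1 at 6.68 CPM again lay above the 3 Rar-deleted libraries. The difference between the title-number sets themselves was -0.34 (SE 0.19, adjusted p = 0.245).

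Transcripts of some epithelial genes followed the level of Wnt9a, and others did not. Of all genes with a mean CPM above 1, the 3 whose log2 CPM followed Wnt9a most closely over the 10 libraries were Grhl3 (Pearson r = 0.97), an epithelial transcription factor, Epcam (r = 0.96), an epithelial adhesion protein, and Nbl1 (r = 0.96), a secreted BMP antagonist. Epcam stood at 13.3 to 40.6 CPM in controls, at 4.28 to 6.39 CPM in Rar mutants, and at 1.19 and 2.33 CPM in Dmrt1 het Rar mutants. Its log2 fold change in all Rar-deleted ovaries was -2.61 (adjusted p = 0.0744). Cdh1, listed with Epcam among the markers of oviduct and ciliated epithelium, stood at 9.79 to 22.6 CPM in controls. It was at 3.20, 5.49 and 5.25 CPM in Rar mutants, and at 8.42 and 7.12 CPM in Dmrt1 het Rar mutants. Unlike Wnt9a, Cdh1 was higher in the Dmrt1 het Rar mutants than in the Rar mutants. The 12 markers of ovarian surface epithelium summed to 436 to 735 CPM in controls, 390 to 510 CPM in Rar mutants and 282 and 324 CPM in Dmrt1 het Rar mutants. All 12 had a negative fold change in all Rar-deleted ovaries, with a median of -0.53 and 0 called by edgeR. At an unadjusted p under 0.05 there were 4 of the 12, where 8.47% of all genes lay. Negative signs were not particular to epithelium. All 10 oocyte markers were negative too (median -0.41, 0 at that p), while all 10 ovulatory granulosa and cumulus markers tested were positive (median 3.52). In Rar mutants all 10 granulosa cell markers were negative (median -0.66), beside 11 of 12 surface epithelium markers (median -0.19). With the title-number set as a term, the median of the 12 in all Rar-deleted ovaries was -0.21, with 10 negative and 2 positive. Among high title numbers alone, Rar mutants against controls, it was -0.17, again with 10 negative and 2 positive. The 10 markers of oviduct and ciliated epithelium, Epcam among them, summed to 44.6 to 84.3 CPM in controls, 29.4 to 54.0 CPM in Rar mutants, and 33.8 and 34.8 CPM in Dmrt1 het Rar mutants. Their signs were mixed: in all Rar-deleted ovaries 8 were tested, 7 with a negative and 1 with a positive fold change, a median of -0.41, 0 called and 4 at an unadjusted p under 0.05. In Rar mutants 7 of 10 were negative and 3 positive, the latter being Ovgp1 (2.79, SE 0.71, adjusted p = 0.183), Dnah5 (2.47, SE 0.98, adjusted p = 0.448) and Foxj1 (1.17, SE 0.89, adjusted p = 0.764), singled out after their values were seen. No marker of the surface epithelium list or of the oviduct list was at 0 in all libraries. Whether any of these cell types accounts for the Wnt9a values was not tested. In whole ovaries, fewer cells of a type and less RNA per cell cannot be told apart.

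**Figure D3:**
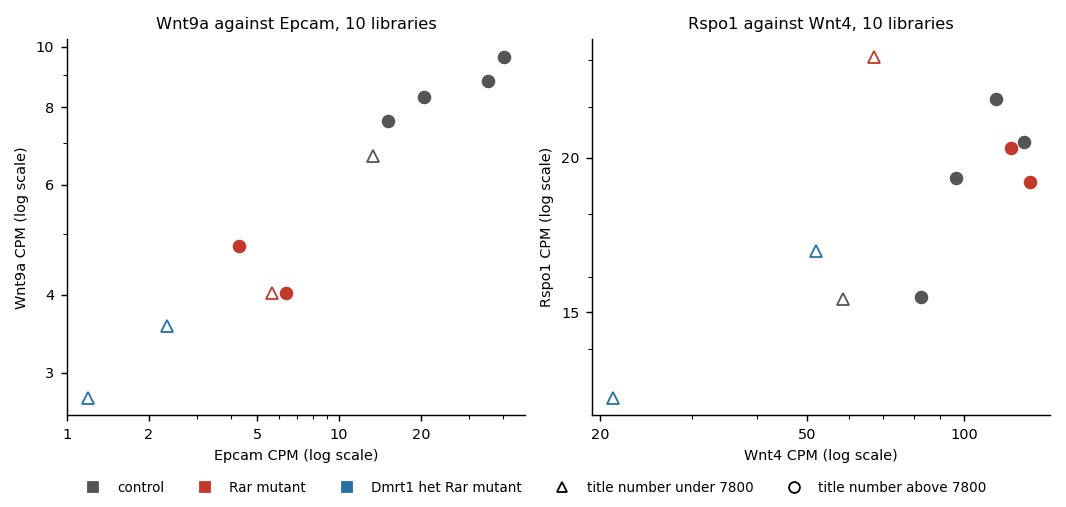
Wnt9a against Epcam (left) and Rspo1 against Wnt4 (right), in CPM on log axes, with 1 point per library, coloured by group and with triangles for title numbers under 7800. The 5 controls lie at the upper right of the left panel, from 6.68 CPM of Wnt9a and 13.3 CPM of Epcam upward, and the right panel shows the Dmrt1 het Rar mutants at the lowest Wnt4 levels.

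Wnt4, the ligand that promotes ovarian fate in the XX gonad, overlapped between Rar mutants and controls (chr4:137277489-137299726, plus strand). Its level was 58.5, 130, 82.7, 115 and 96.6 CPM in controls 1 to 5, 67.1, 133 and 123 CPM in Rar mutants 1 to 3, and 21.2 and 52.1 CPM in Dmrt1 het Rar mutants 1 and 2. The Rar mutants spanned most of the control range, and both Dmrt1 het Rar mutants lay below every other library. In Rar mutants the log2 fold change was 0.23 (SE 0.34, 95% interval -0.51 to 0.97, adjusted p = 0.902). In Dmrt1 het Rar mutants it was -1.50 against controls (SE 0.43, adjusted p = 0.243) and -1.73 against Rar mutants (SE 0.45, adjusted p = 0.203).

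Wnt4 levels also sorted by title number, and both Dmrt1 het Rar mutants have low ones. The 4 libraries with low title numbers held 21.2 to 67.1 CPM of Wnt4 and the 6 others 82.7 to 133 CPM, without overlap. How many of all genes separate these sets was not computed. With the 3 groups as terms, the difference between these sets was -0.97 (SE 0.28, adjusted p = 0.0543). With the title-number set in the fit, the fold change of Dmrt1 het Rar mutants was -0.68 against controls (adjusted p = 0.782) and -1.01 against Rar mutants (adjusted p = 0.515). DESeq2 without that term called both comparisons, with adjusted p of 0.0254 and 0.00906. Among the low title numbers, Dmrt1 het Rar mutant 2 at 52.1 CPM stood close to control 1 at 58.5 CPM, and Dmrt1 het Rar mutant 1 at 21.2 CPM stood well below. Leaving out Dmrt1 het Rar mutant 1 brought the fold change against controls to -0.99987, and leaving out Dmrt1 het Rar mutant 2 took it to -2.25. Without Rar mutant 1, edgeR called Wnt4 lower in Dmrt1 het Rar mutants than in Rar mutants (adjusted p = 0.0497).

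The genes whose pattern was most like that of Wnt4 over the 10 libraries were Cygb (Pearson r = 0.98), a globin of fibroblast-like cells, Sox9 (r = 0.95), a driver of testis development, and Lmcd1 (r = 0.95). Sox9 was scarce, at 1.66 to 3.06 CPM in controls, 2.59 to 2.81 CPM in Rar mutants, and 0.749 and 1.61 CPM in Dmrt1 het Rar mutants. Its Rar mutant values lay within the control range. The 12 surface epithelium markers summed to 282 to 436 CPM in the low title numbers and 494 to 735 CPM in the others. Between these sets, with the 3 groups as terms, 9 of the 12 had a negative difference (median -0.73) and 6 were called lower. Of all genes, 11.7% were called in either direction. Of the 3 with a positive one, edgeR called Muc16 (1.72, adjusted p = 0.0210), while Lrrn4 stood at 0.46 and Gpm6a at 0.35. Lower values at low title numbers were not particular to surface epithelium. All 10 oocyte markers had a negative difference (median -0.91, 5 called lower), as had all 11 ovulatory markers (median -1.78, 0 called) and 5 of 6 smooth muscle markers (median -0.80, 0 called). In the other direction, 5 of 8 corpus luteum markers (2 called higher) and 4 of 6 endothelial markers (1 called higher) were positive. The part of any of these cells in the Wnt4 values was not tested.

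**Figure D4:**
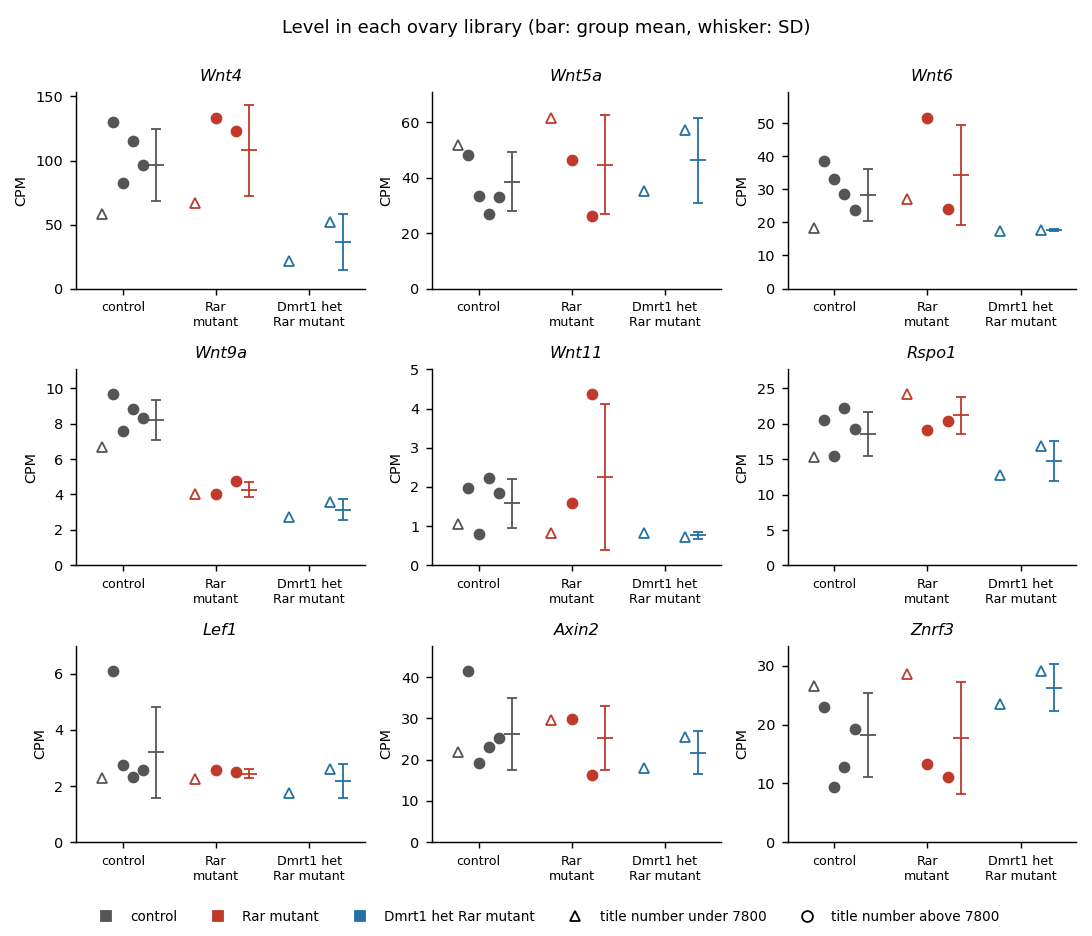
CPM of each of the 9 genes in each library by group (5 controls, 3 Rar mutants, 2 Dmrt1 het Rar mutants), with the group mean and SD at the right of each group; triangles are title numbers under 7800. Every control lies above every Rar-deleted library for Wnt9a, while for Wnt4 and, narrowly, Znrf3 the triangles separate from the circles.

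Wnt6, a ligand of epithelial and stromal tissues, overlapped between controls and Rar mutants (chr1:74771892-74785322, plus strand). It stood at 18.3, 38.4, 33.1, 28.5 and 23.6 CPM in controls, 27.04, 51.6 and 24.2 CPM in Rar mutants, and 17.5 and 17.8 CPM in Dmrt1 het Rar mutants. Both Dmrt1 het Rar mutants lay below all other libraries, with control 1 next above them, and Rar mutant 2 was the highest. In log2 terms the difference was 0.31 in Rar mutants (SE 0.28, adjusted p = 0.811) and -0.78 in Dmrt1 het Rar mutants (SE 0.34, adjusted p = 0.278). With Wnt4 and Wnt9a, it was 1 of 3 genes of the 9 without overlap between Dmrt1 het Rar mutants and controls, where 28.9% of all genes did not overlap, so 3 of 9 is near the background. The title-number sets differed by -0.71 (SE 0.26, adjusted p = 0.103), and with that term the value for Dmrt1 het Rar mutants was -0.19. Ifnar2, an interferon receptor subunit, was closest in pattern (r = 0.98), then Ccdc80 (r = 0.96) and Rras (r = 0.96).

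Wnt5a, the ligand of the Ror receptors, was spread widely within every group (chr14:28504750-28527448, plus strand). Its level was 52.0, 48.0, 33.2, 26.9 and 33.0 CPM in controls, 61.7, 46.2 and 26.4 CPM in Rar mutants, and 35.3 and 57.2 CPM in Dmrt1 het Rar mutants. All groups overlapped. The log2 fold change in all Rar-deleted ovaries was 0.23 (SE 0.23, 95% interval -0.27 to 0.73, adjusted p = 0.735), an interval that holds differences of up to 0.73 in the log2 level. The title-number sets differed by 0.58 (SE 0.24, adjusted p = 0.131), with the higher values at low numbers. Hivep3 (r = 0.93), Stab1 (r = 0.92), a scavenger receptor, and Cyb5b (r = 0.91) were the genes most like it.

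Wnt11, a ligand of cell movement and planar polarity, was the scarcest of the 5 ligands and depended on a single library (chr7:98835112-98855195, plus strand). It stood at 1.06, 1.99, 0.799, 2.24 and 1.85 CPM in controls, 0.829, 1.59 and 4.36 CPM in Rar mutants, and 0.837 and 0.712 CPM in Dmrt1 het Rar mutants. Rar mutant 3 was the highest of all 10, and the groups overlapped. The fold change in Rar mutants was 0.62 (SE 0.51, adjusted p = 0.790) with that library and -0.38 without it. In all Rar-deleted ovaries it was 0.15 (SE 0.54) with and -0.70 without. Dmrt1 het Rar mutants stood at -1.11 against controls (SE 0.66, adjusted p = 0.376), and at -0.066 with the title-number set as a term. Between title-number sets, low against high, Wnt11 differed by -1.27 (SE 0.52, adjusted p = 0.129). Rar mutant 3 also held the highest sum of ovulatory granulosa and cumulus markers, at 8168 CPM, against 674 and 1690 CPM in the other Rar mutants, 108 to 816 CPM in controls, and 224 and 841 CPM in Dmrt1 het Rar mutants. Of these 12 markers, 11 were tested in Rar mutants, all 11 had a positive fold change and 0 were called by edgeR, with 11 at an unadjusted p under 0.05, where 9.45% of all genes were. Without Rar mutant 3, 10 were tested, 9 with a positive and 1 with a negative fold change, 7 at an unadjusted p under 0.05 and 0 called, and their median was 1.427 in place of 4.93. The negative one was Ptx3, which stood at 1.34 and 2.20 CPM in Rar mutants 1 and 2, below its 2.58 to 5.62 CPM in controls, and at 67.9 CPM in Rar mutant 3. None was at 0 in all libraries. The part of these cells in the Wnt11 values was not tested. Tsr2, Sub1 and Prpf38a followed Wnt11 most closely, with r from 0.94 to 0.95.

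Rspo1, the R-spondin that amplifies Wnt signals in the early ovary, had the same mean in controls and in all Rar-deleted ovaries, to 3 digits (chr4:124986430-125009099, plus strand). It stood at 15.4, 20.6, 15.4, 22.3 and 19.2 CPM in controls, 24.2, 19.1 and 20.4 CPM in Rar mutants, and 12.8 and 16.8 CPM in Dmrt1 het Rar mutants. The pooled Rar-deleted group averaged 18.6 ± 4.22 CPM and controls 18.6 ± 3.11 CPM. This is a log2 fold change of 0.02 (SE 0.20, 95% interval -0.41 to 0.45, adjusted p = 0.979). Rar mutants lay at 0.25 (SE 0.17, adjusted p = 0.726) and Dmrt1 het Rar mutants at -0.42 (SE 0.20, adjusted p = 0.300) against controls. Against Rar mutants, the Dmrt1 het Rar mutants stood at -0.67 (SE 0.22, adjusted p = 0.220). Rspo1 was there 1 of 4 of the 9 genes without overlap, with Wnt4, Wnt6 and Wnt9a, where 41.3% of all genes did not overlap, so 4 of 9 is again near the background. The title-number sets differed by -0.12 (SE 0.19, adjusted p = 0.699). Its nearest patterns were Pcyt2 (r = 0.93), Tiprl (r = 0.93) and Spryd7 (r = 0.92).

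Znrf3, the membrane ligase that R-spondins inhibit, overlapped between all groups and was separated by title number, narrowly (chr11:5276324-5444847, minus strand). It stood at 26.6, 23.05, 9.33, 12.8 and 19.2 CPM in controls, 28.7, 13.3 and 11.1 CPM in Rar mutants, and 23.5 and 29.1 CPM in Dmrt1 het Rar mutants. The 4 libraries with low title numbers held 23.5 to 29.1 CPM and the 6 others 9.33 to 23.05 CPM, without overlap but nearly touching. The share of all genes with such a separation was not computed. The difference between these sets was 0.89 (SE 0.26, adjusted p = 0.0526). The fold change in all Rar-deleted ovaries was 0.21 (SE 0.30, adjusted p = 0.815), and it was -0.19 with the title-number set in the fit. The genes with the nearest pattern were Cd46 (r = 0.99), a complement regulator, Vamp1 (r = 0.98), a vesicle protein, and Zscan26 (r = 0.98).

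Lef1, a nuclear partner of beta-catenin, was near-uniform apart from control 2 (chr3:131110471-131224356, plus strand). It stood at 2.30, 6.08, 2.73, 2.32 and 2.59 CPM in controls, 2.25, 2.56 and 2.51 CPM in Rar mutants, and 1.76 and 2.61 CPM in Dmrt1 het Rar mutants. All groups overlapped, and control 2 exceeded every other library more than 2-fold. The log2 fold change in all Rar-deleted ovaries was -0.44 (SE 0.29, 95% interval -1.07 to 0.20, adjusted p = 0.656), and it was -0.10 without control 2. In Dmrt1 het Rar mutants alone it was -0.64 (SE 0.40, adjusted p = 0.403). Susd2 (r = 0.88), Fam20a (r = 0.86) and Wnk4 (r = 0.84) were the closest patterns.

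Axin2, the scaffold of the destruction complex and a feedback target of beta-catenin, overlapped in all comparisons (chr11:108920349-108950783, plus strand). It stood at 21.96, 41.4, 19.3, 22.96 and 25.3 CPM in controls, 29.7, 29.9 and 16.2 CPM in Rar mutants, and 18.1 and 25.4 CPM in Dmrt1 het Rar mutants. Control 2 was again the highest library. The log2 fold change in all Rar-deleted ovaries was -0.13 (SE 0.22, 95% interval -0.62 to 0.36, adjusted p = 0.852), and the title-number sets differed by -0.05 (SE 0.30, adjusted p = 0.921). The closest patterns were Zfp503 (r = 0.96), Mxra8 (r = 0.95) and Dmpk (r = 0.95). The likeness values above are the highest among all genes over 10 libraries that share depth and title-number sets, so they are a description. Antisense genes overlap Wnt5a, Wnt6, Rspo1, Lef1 and Axin2 in the annotation. Whether counting used strand is not stated, so their reads cannot be told apart from those of the genes. Per library, the antisense genes were given 2 to 10 counts at Wnt5a (itself 683 to 1563), 5 to 21 at Wnt6 (375 to 1269) and 0 to 11 at Rspo1 (290 to 612). Those at Lef1 and Axin2 were not among the genes counted.

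Around these 9 genes, 89 genes of the pathway were listed by role, the 9 included. No pathway gene was called by edgeR in any comparison: 0 of 73 tested in all Rar-deleted ovaries, with 11 at an unadjusted p under 0.05 (8.47% of all genes were), and 0 of 75 tested in Rar mutants, with 14 (9.45% of all genes). In Dmrt1 het Rar mutants 0 of 75 were called, with 24 at an unadjusted p under 0.05 against controls (17.3% of all genes) and 25 against Rar mutants (16.9% of all genes). At this unadjusted threshold the pathway share was above that of all genes in each comparison, and whether by more than chance was not tested. The lists were chosen with earlier results of these data known, so these shares are a description. DESeq2 called 4 of 80 in each of the 4 comparisons, where it called 0.754%, 1.56%, 1.4% and 2.59% of all genes in the order above. In all Rar-deleted ovaries these were Sfrp2, higher, and Fzd7, Rnf43 and Wnt9a, lower. In Rar mutants they were Frzb and Sfrp2, higher, and Rnf43 and Wnt9a, lower. In Dmrt1 het Rar mutants they were Sfrp2, higher, and Tnfrsf19, Wnt4 and Wnt9a, lower, against controls, and Lgr6, higher, and Ror2, Rspo3 and Wnt4, lower, against Rar mutants.

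Secreted antagonists, which act on Wnt ligands or co-receptors outside the cell, had the highest median fold change of the roles by edgeR in all Rar-deleted ovaries. The median was 0.67 over 6 tested of 13 listed, with 4 positive, 0 called and 3 at an unadjusted p under 0.05. With DESeq2, which tested 11 of them, 7 were positive and 4 negative. Their median was then 0.18, below the 0.23 of Frizzled receptors, so this rank depended on which genes were tested. Sfrp2 stood at 2.17, 2.98, 2.82, 4.51 and 2.38 CPM in controls, 5.01, 15.4 and 9.95 CPM in Rar mutants, and 11.0 and 6.84 CPM in Dmrt1 het Rar mutants, so every Rar-deleted library lay above every control. Its log2 fold change was 1.70 (SE 0.33, adjusted p = 0.0948). It passed with the title-number set in the fit, at 1.97 (adjusted p = 0.0382), and in the high title numbers alone, at 2.05 (adjusted p = 0.0286). Frzb, a relative of Sfrp2, stood at 2.67 to 5.42 CPM in controls, 5.21, 10.8 and 25.7 CPM in Rar mutants, and 6.04 and 7.98 CPM in Dmrt1 het Rar mutants. Its fold change was 1.48 (SE 0.46, adjusted p = 0.474). The authors' deposited table of 185 genes, which the sample descriptions tie to controls and Rar mutants, listed both: Sfrp2 at a log2 value of 1.33 (SE 0.282; adjusted p = 0.000868) and Frzb at 1.19 (SE 0.303; adjusted p = 0.0130). None of the 9 genes described here was in the authors' deposited table. Sfrp4 was the most abundant antagonist, with a mean of 945 ± 478 CPM after Rar deletion and of 558 ± 483 CPM in controls (log2 fold change 0.80, SE 0.62, adjusted p = 0.674).

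Between Rar mutants and controls, 1 of 2 receptor turnover ligases had separated groups, as had 0 of 6 genes of R-spondins and their receptors, 0 of 10 Frizzled receptors and 0 of 6 co-receptors, where 5.3% of all genes had. Between Dmrt1 het Rar mutants and controls the counts were 0 of 2, 2 of 6 (Lgr6 and Rspo3), 1 of 10 (Fzd5) and 3 of 6 (Lrp5, Lrp6 and Ror2), where 28.9% of all genes had separated groups. Rnf43, the ligase paired with Znrf3, stood at 5.72 to 9.85 CPM in controls and at 5.05, 4.19 and 3.40 CPM in Rar mutants, without overlap. In Rar mutants the log2 fold change was -0.82 (SE 0.20, adjusted p = 0.157), and DESeq2 called it at an adjusted p of 0.00965. In Dmrt1 het Rar mutants it stood at 6.04 and 5.13 CPM, the first of which lay within the control range. Among the 10 Frizzled receptors, 0 were called by edgeR and Fzd7 had the smallest p, at -0.54 (SE 0.14, adjusted p = 0.338), while Fzd1, the most abundant per length, stood at 0.49 (SE 0.42). Of 6 co-receptors 0 were called, with Ryk, the most abundant, at 0.00 (SE 0.13), Ror1 at 0.39 (SE 0.22) and Ptk7 at -0.24 (SE 0.13). Lgr4, the most abundant R-spondin receptor, stood at 0.26 (SE 0.33) and Lgr6 at 0.34 (SE 0.36), both in all Rar-deleted ovaries.

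None of the remaining ligands and intracellular genes passed the edgeR test in the comparisons of groups. Among ligands, Wnt5b stood at -0.49 (SE 0.18, adjusted p = 0.547) in all Rar-deleted ovaries and Wnt10a at 1.96 (SE 0.58, adjusted p = 0.251) in Rar mutants. Wnt10a was highest in Rar mutant 2, at 4.39 CPM, against 1.22 and 1.04 CPM in Rar mutants 1 and 3 and 0.168 to 1.16 CPM in controls. Wls, the carrier of Wnt ligands to the surface, stood at -0.03 (SE 0.14) and Porcn, which attaches their lipid, at -0.08 (SE 0.36). In the destruction complex and Dishevelled group 0 of 10 were called, with Ctnnb1, the gene of beta-catenin, at 0.08 (SE 0.20), Csnk1a1 at 0.25 (SE 0.14) and Apc at 0.43 (SE 0.30). Among 8 nuclear factors 0 were called, and Tcf7, the most abundant, stood at 0.13 (SE 0.18). Of 11 feedback targets tested, 8 had a negative fold change with a median of -0.28 and 0 called, Tnfrsf19 at -0.59 (SE 0.26, adjusted p = 0.585) among them. Notum stood at 1.75 (SE 0.62, adjusted p = 0.366) in Rar mutants. It was scarce, at 0.126 to 0.340 CPM in controls, near the value of 3 counts, and at 0.158, 0.610 and 1.35 CPM in Rar mutants 1 to 3. Celsr3, a planar polarity cadherin, was scarce, with a mean of 0.164 ± 0.101 CPM after Rar deletion and of 0.483 ± 0.0667 CPM in controls, without overlap (-1.51, SE 0.40, adjusted p = 0.340). The Rar-deleted mean of Celsr3 is close to the value of 3 counts.

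Between title-number sets, 6 of 75 pathway genes tested passed the test (8%), a share not above the 11.7% of all genes. With the 3 groups as terms, Apc (0.96, SE 0.15), Gsk3b (0.69, SE 0.13), Dvl3 (0.62, SE 0.15), Fzd4 (0.77, SE 0.14) and Fzd3 (0.87, SE 0.21) were higher in low title numbers, and Tcf7l1 (-0.58, SE 0.13) was lower, with edgeR adjusted p from 0.00703 to 0.0313. Among the 9 genes 0 were called in this contrast, and Znrf3 and Wnt4 came nearest.

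**Figure D5:**
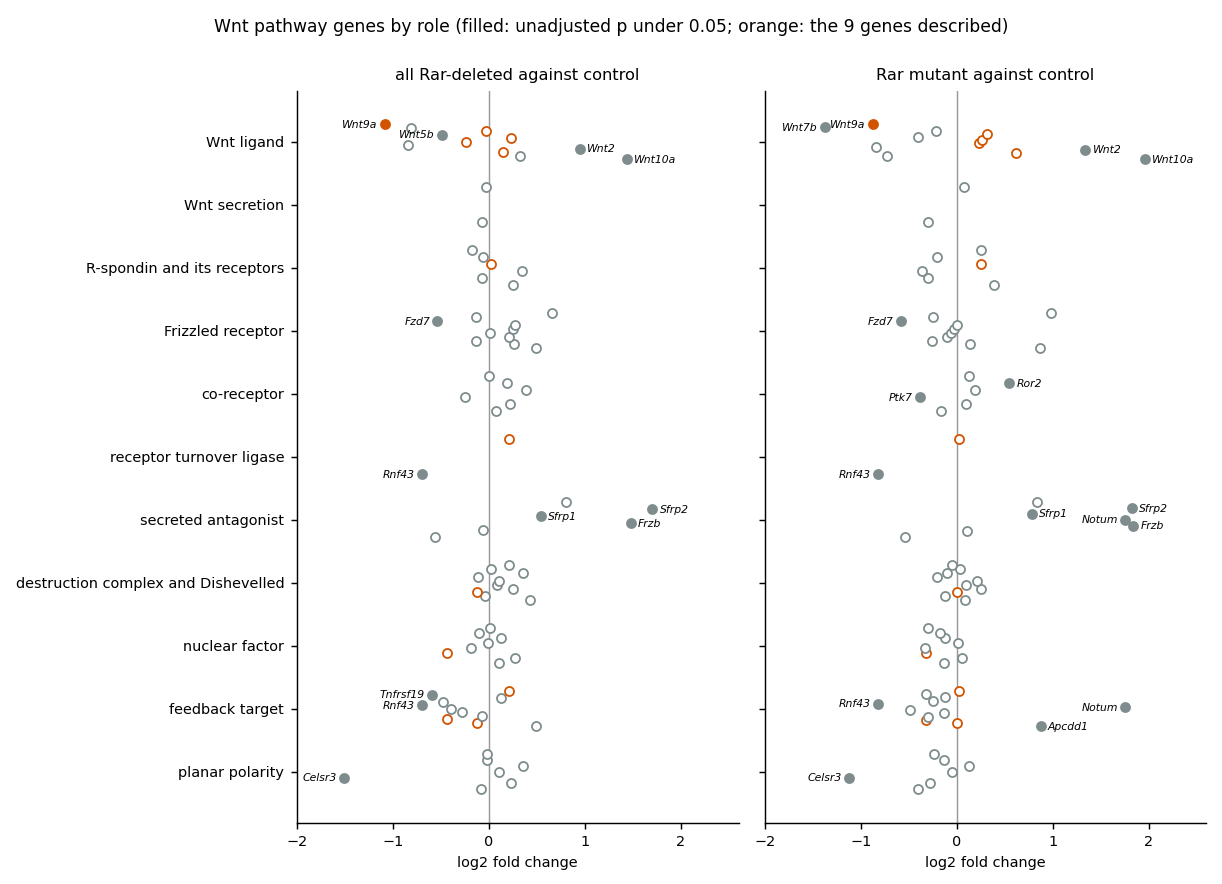
Fitted log2 fold change of each tested pathway gene by role, in all Rar-deleted ovaries (left) and in Rar mutants (right) against controls; filled points have an unadjusted p under 0.05 and the 9 genes described are orange. Sfrp2 and Frzb lie at 1.70 and 1.48 in the left panel, Wnt9a at -1.08, and none passed the adjusted threshold.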

How the data were processed

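PolyA RNA libraries of 10 whole ovaries were made with a stranded mRNA kit, per the labels' protocols. Per the submitters' processing notes, Trimmomatic 0.32, STAR 2.4.2a, SAMtools 1.0 and DESeq2 1.12.3 were used on GRCm38 (mm10); counting tool and annotation release are not given in the sources used here. The authors deposited raw counts per Ensembl gene and library, and FPKM values whose ratio to the counts follows median-of-ratios size factors. The authors' deposited table of differential genes gives, per the file headers, log2 fold changes and their standard errors, Wald scores, raw and adjusted p-values, and a signal (the mean of normalised counts).

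The main test was edgeR 4.0.16 (quasi-likelihood, TMM, filterByExpr, robust) under R 4.3.3. It was run on simulated counts that held no title-number difference, so this does not check the test where such a difference is present. One fit set the 5 Rar-deleted libraries against 5 controls (18954 genes), and another held the 3 labelled groups with a shared spread (20570 genes). The design text gives 5 replicates of 2 genotypes, which only the pooled grouping meets. The SE is the fold change over the square root of F and is approximate. CPM was used within a gene and FPKM between genes. A count of 0 allows up to 3 counts, for counting error only. Correlations used log2 CPM with a prior count of 2. No pair of libraries was a duplicate, and 438 identifiers had no symbol. Alternatives were DESeq2 1.42.0, RLE size factors, no low-count filter, the replicate number or title-number set as a term, high title numbers alone, fits of 2 groups, and each library left out. Reading the DESeq2 and title-number fits, and the fit without Rar mutant 3, for the pathway and marker lists was added after seeing the data. Named pathway genes were those called, the most abundant of each role, the 2 of smallest p in each role in the first 2 comparisons, and those in the authors' table; a part is printed. For each of the 9 genes, the 3 nearest patterns were named, predicted genes left out. The 9 genes and the lists were chosen with earlier results of these data known. Gene positions came from GENCODE M21.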

Additional observations from a re-analysis of the deposited data

Results flagged for a closer look

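In 18 groups of 5 libraries (each of the 9 genes in controls and in all Rar-deleted ovaries), 4 held a library far from the others, with a gap to its neighbour above 0.71 of the group's range; chance gives this in about 5% of groups. Lef1 was highest in control 2, at 6.08 CPM, where the gap made up 0.885 of the control range. Axin2 was highest in the same library, at 41.4 CPM, with a gap of 0.728. Wnt11 was highest in Rar mutant 3, at 4.36 CPM, with a gap of 0.760 among the Rar-deleted ovaries. Wnt6 was highest in Rar mutant 2, at 51.6 CPM, with a gap of 0.720 among the Rar-deleted ovaries.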

How the results depend on the processing

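Wnt9a stayed negative under all alternatives run in all 4 comparisons, and the calls of Wnt9a and Wnt4 depended on the tool. Members called went from 0 to 1 (all Rar-deleted), 1 (Rar mutant), 2 (Dmrt1 het against control) and 1 (Dmrt1 het against Rar mutant) with DESeq2, and ranged over 0 to 1 with a library left out; genes called went from 21, 2, 4 and 0 to 182, 376, 337 and 626 with DESeq2. With a library left out, genes called ranged over 5 to 52, 1 to 384, 0 to 364 and 0 to 335, the highest without control 1 (all Rar-deleted and Dmrt1 het against control) or without Rar mutant 1 (the other comparisons). RLE size factors and no low-count filter stayed within 1.5 times. The title-number set as a term gave 40, 85 and 1 genes in the comparisons with controls, high title numbers alone gave 142, and a fit of the 2 groups gave 1 for Rar mutants. The cause of these shifts was not tested.

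Whether the replicate numbers pair the libraries could not be settled. Of 7 same-number pairs, 2 correlated above 0.1 in their deviations from group means (range -0.087 to 0.435). The deviations of the 2 Dmrt1 het Rar mutants mirror each other, so the signs of their correlations cannot show pairing. Same-number Rar mutants and controls stood at 0.435, 0.016 and 0.243 for replicates 1 to 3. Rar mutant 2 and control 4, with different numbers, reached 0.242. With the replicate block, genes called were 0 for all Rar-deleted and 0 for Dmrt1 het Rar mutants, and the sign turned for Wnt5a (-0.068 in all Rar-deleted, -0.24 in Dmrt1 het) and for Axin2 (-0.042) and Znrf3 (-0.058) in Rar mutants. With the title-number term the sign turned in all Rar-deleted for Wnt4 (0.11), Wnt6 (0.29) and Znrf3 (-0.19), in Rar mutants for Znrf3 (-0.18), in Dmrt1 het for Wnt5a (-0.28) and Znrf3 (-0.23), and against Rar mutants for Znrf3 (-0.056). In high title numbers alone it turned for Wnt4 (0.35), Wnt6 (0.34) and Znrf3 (-0.31) in all Rar-deleted, and for Axin2 (-0.17) and Znrf3 (-0.31) in Rar mutants.

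With a library left out, values that crossed 0 ranged, in all Rar-deleted, over -0.52 to 0.0073 (Wnt4), -0.39 to 0.12 (Wnt6), -0.70 to 0.35 (Wnt11), -0.086 to 0.14 (Rspo1) and -0.23 to 0.075 (Axin2). In Rar mutants they ranged over -0.0069 to 0.49 (Wnt5a), -0.085 to 0.48 (Wnt6), -0.38 to 1.03 (Wnt11), -0.43 to 0.017 (Lef1), -0.13 to 0.20 (Axin2) and -0.47 to 0.23 (Znrf3). For Wnt5a in Dmrt1 het Rar mutants they ranged over -0.18 to 0.47 against controls and -0.46 to 0.19 against Rar mutants. With 3 counts at 0.116 to 0.142 CPM, depth limits Celsr3 and Notum but none of the 9 genes.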
